A study of Mus musculus with 9 samples.

Results

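The genes described here are Cd14 and the Toll-like receptor genes Tlr1, Tlr2, Tlr3, Tlr4, Tlr6, Tlr7, Tlr8, Tlr9 and Tlr13 in IMM, an immortalized line of mouse macrophages. They were taken from the table of all genes by symbol, 10 of 55450 identifiers. The set was chosen with earlier results of these data known. All 10 passed the filter on low counts, as did 14246 genes in all. The cells were wild type (WT), a single line, and were sampled before lipopolysaccharide (LPS, 0 min, untreated) and after 30 and 60 min in 100 ng/mL LPS. Each time had 3 libraries of ribosome-depleted total RNA. The design text calls these biological replicates, and nothing else in the sources used here shows that they came from separate cultures. The series has no untreated library at 30 or 60 min, so LPS, handling and elapsed time cannot be told apart.

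Toll-like receptors are membrane proteins that recognise molecules of microbes through leucine-rich repeats and signal through an intracellular TIR domain. Tlr4, with its partner protein Ly96 (MD-2), is the receptor for LPS, and Cd14 is the surface protein that hands LPS to that pair. Tlr2 recognises bacterial lipopeptides as a heterodimer with Tlr1 or Tlr6. Tlr3, Tlr7, Tlr8, Tlr9 and Tlr13 sit in endosomes and recognise nucleic acids. Most of them signal through the adaptor Myd88, Tlr3 through Ticam1 (TRIF), and Tlr4 through both, toward NF-kB, AP-1 and interferon regulatory factors.

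RefSeq promoter windows (GRCm38.p6, from 250 bases before to 50 bases after each start) were at hand for 7 of the 10 genes, all but Tlr4, Tlr7 and Cd14. These genes had 9 windows, 2 each for Tlr1 and Tlr6 and 1 for each of the others. The windows were searched on both strands for the NF-kB consensus (GGGRNNYYCC), AP-1 (TGANTCA), CRE (TGACGTCA), the ISRE core (GAAANNGAAA) and an ETS site (GAGGAA). Overlapping matches of a motif were counted as 1 site. The stretches shown are in lower case with the match in capitals. The first is from the gene of the set that rose most among those with a window, the second is the NF-kB match found outside Tlr2, in a gene with no called change, and the third is the one AP-1 match. The Tlr2 stretch is chr3:83841768-83841858 on the minus strand, the Tlr3 stretch chr8:45410572-45410601 on the minus strand and the Tlr9 stretch chr9:106222529-106222558 on the plus strand.
Tlr2: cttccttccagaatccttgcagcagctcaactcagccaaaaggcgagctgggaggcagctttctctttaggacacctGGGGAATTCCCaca
Tlr3: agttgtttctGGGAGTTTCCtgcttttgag
Tlr9: caaatgatgtgTGACTCAttgtaccacctg

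The Tlr2 window held 2 matches to the NF-kB consensus. The one shown lay 173 to 163 bases before the RefSeq start and 14 to 4 bases before the start in the GENCODE annotation, and the other spanned the RefSeq start. The Tlr3 match lay 211 to 202 bases before the RefSeq start, inside the gene as GENCODE draws it, and the Tlr9 match 58 to 52 bases before the start. Among 32851 RefSeq windows of 300 bases, 8.46% held an NF-kB match, 7.81% an AP-1 match, 1.79% a CRE match, 3.44% an ISRE core match and 28.3% the ETS site. The remaining matches were 1 ISRE core in a window of Tlr6 and ETS sites, 2 in Tlr9 and 1 each in Tlr1, Tlr8 and Tlr13. A match describes the letters of a window and is not a measured binding site.

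The libraries held 26867428 to 30402308 counts. Levels are given as CPM, counts relative to the library's total, which was first scaled by edgeR's TMM factor (0.9705 to 1.034). The 7 macrophage markers measured summed to 1759 to 1963 CPM in a library, and the most abundant, Csf1r, had means of 566, 593 and 644 CPM at 0, 30 and 60 min. At 60 min against 0 min 1 of the 7 was higher, Csf1r (log2 change 0.19, edgeR adjusted p = 0.000522), and 1 lower, the Fc receptor gene Fcgr1 (from 101.3 to 89.7 CPM, -0.18, adjusted p = 0.00781), and both calls held under all 17 alternatives. Of all genes tested, 13.3% were called higher and 11.7% lower in that comparison. Markers of B cells, T cells, neutrophils and fibroblasts summed to at most 0.594, 0.316, 0.382 and 0.208 CPM, with the defining genes Ms4a1, Cd3e, Cd8a, Ly6g, S100a9, Pdgfra, Dcn and Lum at 0 counts in every library. Markers of epithelium and endothelium summed to 0.520 to 1.47 CPM, with Krt8 at 0. Of the dendritic cell list, all 5 genes had counts, and their sum was 8.19 to 8.73 CPM at 0 min, 8.32 to 9.12 at 30 min and 6.55 to 7.33 at 60 min, nearly all of it Zbtb46. Zbtb46, a transcription factor also used as a dendritic cell marker, was lower at 60 min than at 0 min (log2 change -0.31, edgeR adjusted p = 0.0170), a call lost without 0 min replicate 1 or 60 min replicate 1 or 3 (adjusted p = 0.0669, 0.0538 and 0.0524) and by DESeq2 (0.0790). Xcr1, at a few counts, was also called lower at 60 min (-1.88, adjusted p = 0.0434), with an adjusted p of up to 0.150 with 1 library left out, as without 60 min replicate 1, and of 0.0848 by DESeq2. The part of these markers in the results below was not tested.

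At 30 min against 0 min, 2 of the 10 genes were higher (Cd14 and Tlr2), 1 was lower (Tlr9) and 7 were not called by edgeR's quasi-likelihood test at an adjusted p under 0.05. Of all 14246 genes tested, 4.84% were called higher and 3.35% lower. At 60 min against 0 min, 2 were higher (Cd14 and Tlr2), 3 were lower (Tlr1, Tlr7 and Tlr8) and 5 were not called, beside 13.3% and 11.7% of all genes. From 30 to 60 min, 3 were higher (Cd14, Tlr2 and Tlr9) and 2 lower (Tlr1 and Tlr7), beside 8.87% and 7.65% of all genes. The groups of libraries did not overlap for 3 higher and 3 lower genes at 30 min (14.1% and 11.7% of all genes), for 2 and 3 at 60 min (19.6% and 18.8%), and for 3 and 5 between 30 and 60 min (17.1% and 16.7%). Cd14 and Tlr2 were the only members changed at least 2-fold, in both comparisons with 0 min, where 1.41% and 3.03% of all genes were called at least 2-fold higher. The median log2 change of the 10 genes was -0.01 for 30 min against 0 min, -0.09 for 60 min against 0 min and -0.11 for the second interval, beside 0.01, 0.00 and 0.00 over all genes tested. Leaving out 1 library moved the number of lower genes to 0 or 2 at 30 min and to between 0 and 3 from 30 to 60 min, and the libraries concerned are named with each gene. Both comparisons with 0 min use the same 3 control libraries.

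**Figure D1:**
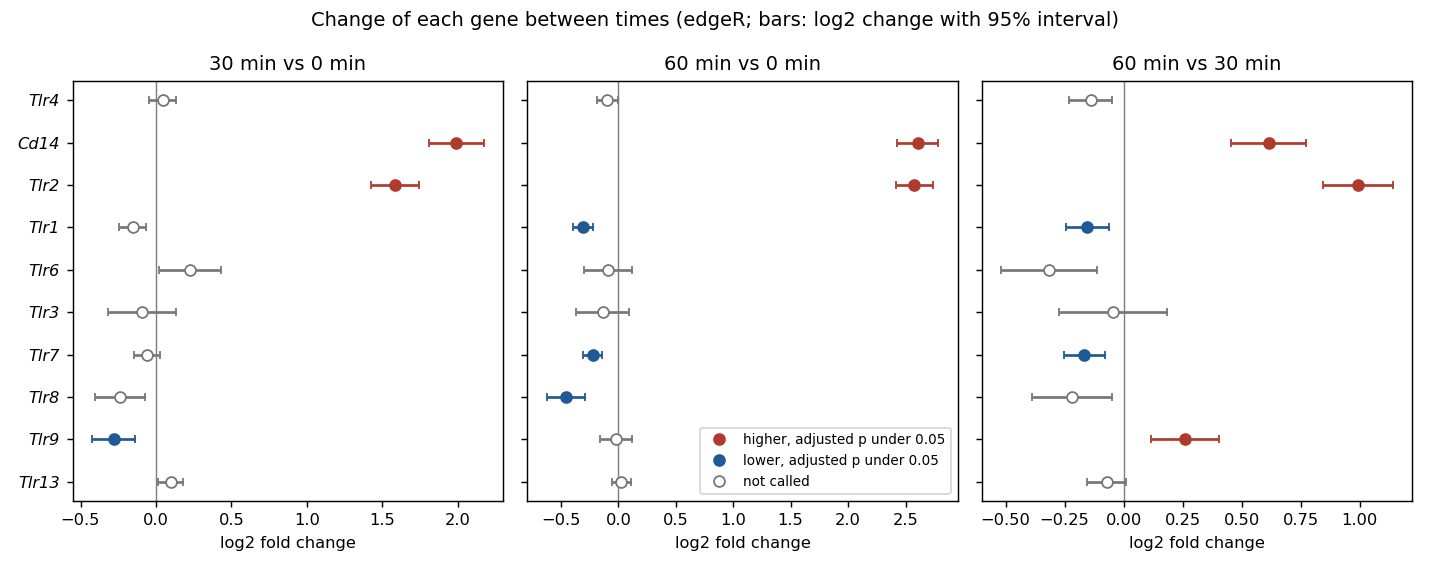
Log2 changes of the 10 genes in the 3 comparisons of times, with intervals of 1.96 SE (nominal 95%) from the edgeR fit over all 9 libraries. These intervals are narrower than ones matched to the edgeR test. Cd14 and Tlr2 reach 2.61 and 2.58 at 60 min against 0 min, and the changes of the other 8 genes lie between -0.46 and 0.26.

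Tlr4, the signalling receptor for LPS, lies at chr4:66827584-66930284 on the plus strand (GRCm38; ENSMUSG00000039005.13). Its level was 86.4, 87.5 and 96.4 CPM in the 3 libraries at 0 min, 93.8, 93.6 and 91.7 at 30 min, and 88.3, 84.2 and 80.8 at 60 min. The 0 min libraries overlapped those of both later times, while every 60 min library lay below every 30 min library. The log2 change was 0.05 (SE 0.05, 95% interval -0.04 to 0.13, edgeR adjusted p = 0.631) at 30 min and -0.09 (SE 0.05, interval -0.18 to -0.01, adjusted p = 0.154) at 60 min. From 30 to 60 min it was -0.14 (SE 0.05, adjusted p = 0.0520), which passed the threshold without 0 min replicate 3 (adjusted p = 0.0241) or 60 min replicate 1 (adjusted p = 0.0393). Scaled by total counts alone, the 60 min change was -0.16 with an adjusted p of 0.0237. In bulk RNA a change in the number of cells that carry a transcript and a change in its amount per cell cannot be told apart.

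Cd14, the LPS-binding surface protein (chr18:36725067-36726798, minus strand; ENSMUSG00000051439.7), stood at 21.4, 21.5 and 24.1 CPM at 0 min. It stood at 103.9, 80.3 and 82.5 CPM at 30 min and at 146.1, 127.3 and 135.2 CPM at 60 min. No library of any time overlapped another time's range. The level was 3.98-fold higher at 30 min than at 0 min (log2 change 1.99, SE 0.09, edgeR adjusted p = 2.57e-09) and 6.09-fold higher at 60 min (2.61, SE 0.09, adjusted p = 5.63e-11). The step from 30 to 60 min was 1.53-fold (0.61, SE 0.08, adjusted p = 0.000102).

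Tlr2 (chr3:83836272-83841767, minus strand; ENSMUSG00000027995.10) stood at 65.8, 64.0 and 67.3 CPM at 0 min, 229.5, 174.6 and 186.8 at 30 min, and 413.1, 373.2 and 389.8 at 60 min. Again no time overlapped another. Its level was 3.00-fold higher at 30 min (log2 change 1.58, SE 0.08, edgeR adjusted p = 5.59e-09) and 5.97-fold higher at 60 min (2.58, SE 0.08, adjusted p = 2.12e-11). The step from 30 to 60 min was 1.99-fold (0.99, SE 0.08, adjusted p = 5.93e-07).

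**Figure D2:**
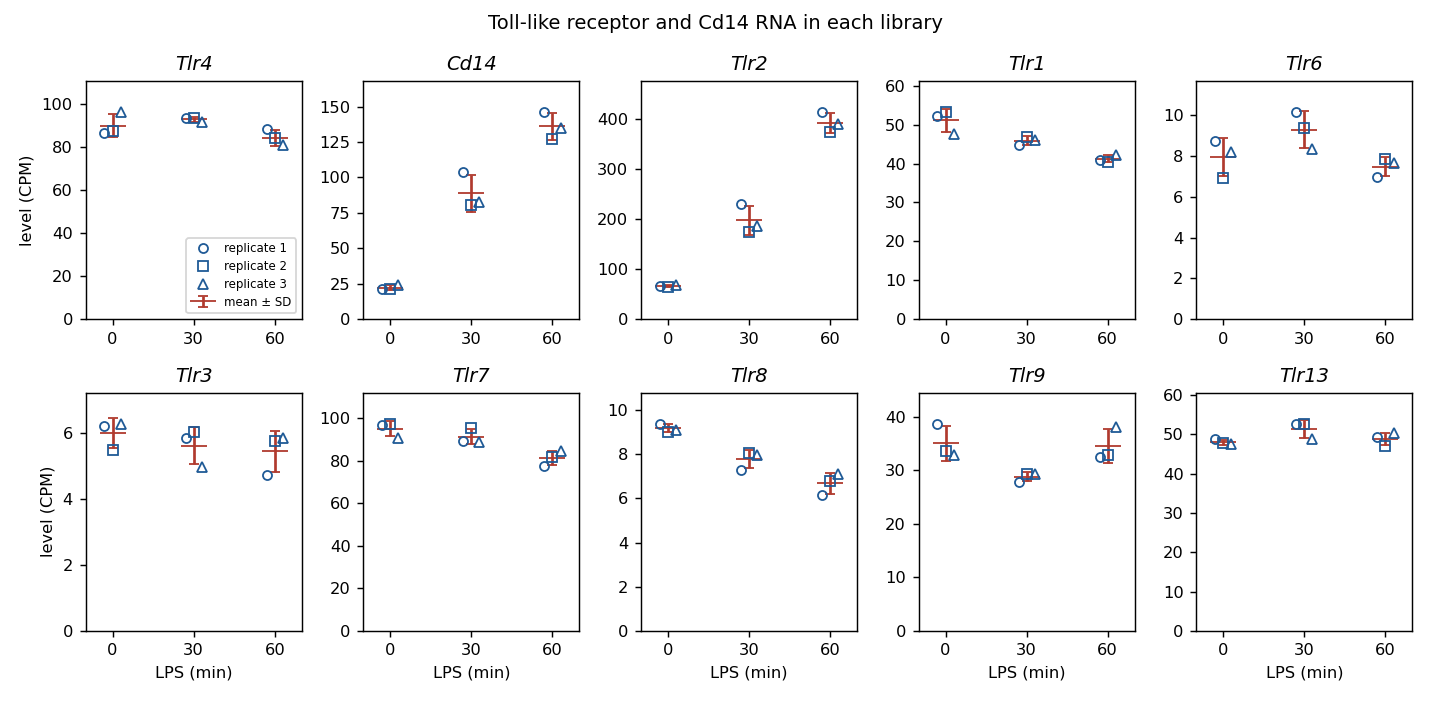
Level of each of the 10 genes in CPM against minutes of LPS, with a point for each of the 9 libraries and the mean of each time. Cd14 and Tlr2 climb at each step, from means of 22.3 and 65.7 CPM at 0 min to 136.2 and 392.0 CPM at 60 min, while Tlr4 stays between 80.8 and 96.4 CPM in every library.

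The 2 rising genes had different shares of their gain by 30 min, a difference that was not tested. Cd14 gained 66.6 CPM in the first 30 min and 47.3 CPM in the second, so that 58.5% of its gain was reached by 30 min. Tlr2 gained 131.3 and then 195.1 CPM, with 40.2% reached by 30 min. Set against the mean of the other times, the 3 libraries at 30 min gave 71.6%, 50.9% and 52.9% for Cd14 and 50.2%, 33.4% and 37.1% for Tlr2, replicate 1 being the highest for both genes. The ratio of Cd14 to Tlr2 counts within a library, a ratio added after the data were seen and not tested, was 0.340 ± 0.0165 (SD, n = 3) at 0 min, 0.452 ± 0.00922 at 30 min and 0.347 ± 0.00633 at 60 min. In this ratio 30 min replicate 1 did not stand apart, at 0.453 beside 0.460 and 0.442.

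Ratios of 2 genes within a library do not depend on how libraries are scaled. The ratio of Cd14 to Tlr4 counts was 0.247, 0.246 and 0.250 at 0 min, 1.11, 0.858 and 0.900 at 30 min, and 1.66, 1.51 and 1.67 at 60 min. Each time lay above the one before it in every library. The Tlr2 to Tlr4 ratio went from 0.730 ± 0.0312 through 2.12 ± 0.298 to 4.65 ± 0.197 (SD, n = 3 each). The 7 planned ratios gave 21 comparisons of times. Of these, 18 had groups that did not overlap and reached the smallest p that an exact two-sided permutation test of 3 against 3 allows. That p is 0.10 (0.117 after Benjamini-Hochberg adjustment), so none could pass 0.05. The 18 include every comparison of the planned ratios of Cd14 or Tlr2 to another gene, and the rise of both is given above. The comparisons of a ratio also share libraries, and no share over other pairs of genes was taken.

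Tlr1 and Tlr6, the partners with which Tlr2 binds lipopeptides, did not follow Tlr2. Tlr1 (chr5:64924679-64933563, minus strand; ENSMUSG00000044827.10) stood at 52.3, 53.2 and 47.7 CPM at 0 min, 44.8, 46.9 and 46.0 at 30 min, and 40.9, 40.5 and 42.2 at 60 min. The libraries of the 3 times did not overlap, each time lying below the one before. Tlr1 fell by 19.2% from 0 to 60 min (log2 change -0.31, SE 0.05, edgeR adjusted p = 0.000181). At 30 min the change was -0.15 (SE 0.05, adjusted p = 0.0568), past the threshold without 0 min replicate 3 (adjusted p = 0.0124) or 60 min replicate 3 (adjusted p = 0.0493). The step from 30 to 60 min was -0.15 (adjusted p = 0.0347), a call lost without 30 min replicate 2 or 3 or 60 min replicate 1 or 2 (adjusted p = 0.132, 0.0965, 0.105 and 0.120). It was also lost by DESeq2 (adjusted p = 0.0914).

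Tlr6 (chr5:64952031-64960097, minus strand; ENSMUSG00000051498.6), 18468 bases from Tlr1, was read at 198 to 291 counts. Its level was 8.74, 6.94 and 8.19 CPM at 0 min, 10.2, 9.36 and 8.35 at 30 min, and 6.96, 7.84 and 7.65 at 60 min, and only the 30 and 60 min libraries were apart. The log2 change was 0.23 (SE 0.10, edgeR adjusted p = 0.225) at 30 min, -0.09 (SE 0.11, adjusted p = 0.592) at 60 min and -0.31 (SE 0.10, adjusted p = 0.0544) from 30 to 60 min. The last passed the threshold without 0 min replicate 2 (adjusted p = 0.0333) or 30 min replicate 3 (adjusted p = 0.0359). The transcripts of these neighbours are alike: 454 of the 3702 stretches of 50 bases in Tlr6 also occur in Tlr1, which has 3332. Counts were shared out by the authors' estimate where reads match both, so their levels are less certain than those of Tlr2 and Cd14, whose transcripts share no such stretch with another gene.

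The Tlr2 to Tlr1 ratio of counts was 1.29 ± 0.109 at 0 min, 4.30 ± 0.732 at 30 min and 9.51 ± 0.505 at 60 min (SD, n = 3 each). The Tlr2 to Tlr6 ratio was 8.32 ± 0.850, 21.2 ± 2.22 and 52.7 ± 6.05. In both, no library of one time reached the range of another. The Tlr1 to Tlr6 ratio, at 6.49 ± 1.02, 4.98 ± 0.555 and 5.52 ± 0.357, overlapped between 60 min and each of the other times (exact permutation p = 0.20, adjusted 0.21).

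**Figure D3:**
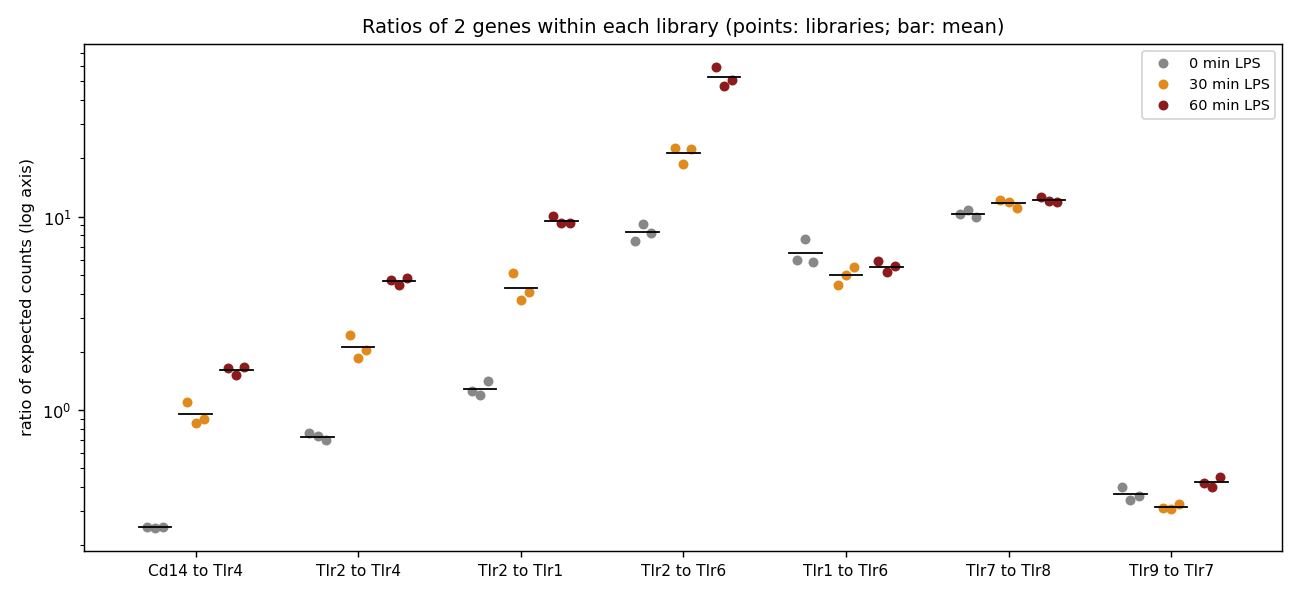
Ratios of counts of 2 receptor genes within a library against minutes of LPS, with a point for each of the 3 libraries of a time and the mean. The Tlr2 to Tlr6 ratio runs from a mean of 8.32 at 0 min to 52.7 at 60 min, while the Tlr1 to Tlr6 ratio stays between 4.41 and 7.67 in every library.

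No endosomal receptor changed by 2-fold, and the largest of their changes was the fall of Tlr8 by 27.2% from 0 to 60 min. Tlr7, a sensor of single-stranded RNA (chrX:167304929-167330558, minus strand; ENSMUSG00000044583.13), stood at 97.0, 97.4 and 90.9 CPM at 0 min, 89.5, 95.5 and 89.0 at 30 min, and 77.7, 81.8 and 84.5 at 60 min. Every 60 min library lay below all earlier ones. It fell by 14.4% from 0 to 60 min (log2 change -0.22, SE 0.04, edgeR adjusted p = 0.00156). At 30 min the change was -0.06 (SE 0.04, adjusted p = 0.493), and from 30 to 60 min it was -0.17 (SE 0.04, adjusted p = 0.0172). The last call was lost without 30 min replicate 2 (adjusted p = 0.0931) or 60 min replicate 1 (adjusted p = 0.0930).

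Tlr8, a related RNA sensor 40600 bases from Tlr7 (chrX:167242696-167264329, minus strand; ENSMUSG00000040522.5), stood at 9.39, 9.03 and 9.12 CPM at 0 min, 7.30, 8.05 and 7.98 at 30 min, and 6.17, 6.78 and 7.09 at 60 min. The 3 times did not overlap. The level fell by 27.2% from 0 to 60 min (log2 change -0.46, SE 0.08, edgeR adjusted p = 0.00108). The changes of -0.24 at 30 min (adjusted p = 0.106) and -0.22 from 30 to 60 min (adjusted p = 0.109) did not pass. The Tlr7 to Tlr8 ratio of counts was 10.4 ± 0.412, 11.8 ± 0.560 and 12.2 ± 0.358 (SD, n = 3 each), with 30 and 60 min overlapping.

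Tlr9, the sensor of unmethylated CpG DNA (chr9:106222598-106226883, plus strand; ENSMUSG00000045322.10), stood at 38.7, 33.5 and 32.8 CPM at 0 min, 27.8, 29.3 and 29.3 at 30 min, and 32.4, 32.9 and 38.1 at 60 min. The 30 min libraries lay below all others, and those of 0 and 60 min overlapped. The level fell by 17.7% from 0 to 30 min (log2 change -0.28, SE 0.07, edgeR adjusted p = 0.0277) and rose by 19.7% from 30 to 60 min (0.26, SE 0.07, adjusted p = 0.0240). The first call was lost without 0 min replicate 1 (adjusted p = 0.128) or 30 min replicate 1, 2 or 3 (0.0976, 0.0645 and 0.0684). The second was lost without 30 min replicate 1, 2 or 3 (0.0770, 0.0582 and 0.0557) or 60 min replicate 3 (0.105). At 60 min against 0 min the change was -0.02 (SE 0.07, adjusted p = 0.871). The Tlr9 to Tlr7 ratio of counts was 0.368 ± 0.0281, 0.316 ± 0.0116 and 0.423 ± 0.0253 (SD, n = 3 each), the 30 min libraries again lowest.

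Tlr13, a mouse sensor of bacterial ribosomal RNA (chrX:106143204-106160493, plus strand; ENSMUSG00000033777.4), stood at 47.5 to 48.8 CPM at 0 min, 48.8 to 52.7 at 30 min and 47.2 to 50.3 at 60 min. The log2 changes were 0.10 (SE 0.04, edgeR adjusted p = 0.192) at 30 min and 0.03 (SE 0.04, adjusted p = 0.695) at 60 min, the latter -0.04 when libraries were scaled by total counts alone. Tlr3, the sensor of double-stranded RNA (chr8:45395665-45411080, minus strand; ENSMUSG00000031639.12), was read at 135 to 194 counts, or 4.73 to 6.30 CPM. Its log2 changes were -0.09 (SE 0.12, adjusted p = 0.713) and -0.14 (SE 0.12, 95% interval -0.36 to 0.09, adjusted p = 0.437) at 30 and 60 min. Its libraries overlapped at all times. An antisense gene that overlaps Tlr3, Gm45542, had 1 count in the 9 libraries together.

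The 3 other Toll-like receptor genes of the mouse were at or near no counts. Tlr11 and Tlr12, which recognise profilin of protozoa, had 0 counts in every library, which allows a level of up to 0.0974 to 0.110 CPM (3 counts of the total, counting error only). Tlr5, the flagellin receptor, had 2 to 13 counts in a library and did not pass the filter.

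To set genes beside each other, counts were divided by the exon length of each gene and scaled to the same total in each library (TPM). At 0 min the levels were 59.5 ± 1.97 TPM for Tlr7 (SD, n = 3), 55.7 ± 1.64 for Tlr2, 41.5 ± 2.86 for Tlr4, 39.0 ± 2.09 for Tlr1 and 33 ± 2.5 for Cd14. Tlr13 followed with 28.5 ± 0.115 TPM and Tlr9 with 25.7 ± 2.07, and the lowest were Tlr8 with 6.54 ± 0.0749, Tlr6 with 5.45 ± 0.599 and Tlr3 with 2.95 ± 0.217. Of the neighbours in this order, Tlr7 and Tlr2 overlapped, as did Tlr4 and Tlr1, and the other neighbours did not. With coding lengths in place of exon lengths, Tlr4 stood first and Tlr6 above Tlr8. With the longest transcript Tlr4 also stood above Tlr2, so the order of these genes depends on the length used.

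At 30 min Tlr2 (160.4 ± 22.3 TPM) and Cd14 (126.0 ± 17.6) led, with overlapping libraries. At 60 min they led without overlap, at 310.3 ± 26.3 and 187.7 ± 19.3 TPM, above Tlr7 at 47.5 and Tlr4 at 36.2 TPM. Further down the 60 min order, Tlr1 (29.4 TPM) overlapped Tlr13 (27.1), Tlr13 overlapped Tlr9 (23.6), and Tlr6 (4.78) overlapped Tlr8 (4.44). The summed TPM of the 10 genes was 297.7 ± 2.21 at 0 min, 479.9 ± 37.5 at 30 min and 673.4 ± 51.5 at 60 min. Of this sum, Tlr2 and Cd14 together took 29.8% ± 1.16 at 0 min, 59.5% ± 3.64 at 30 min and 73.9% ± 1.27 at 60 min. The share of Tlr4 went from 13.9% through 8.60% to 5.39%, and that of Tlr7 from 20.0% through 11.5% to 7.07%, as the sum grew.

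**Figure D4:**
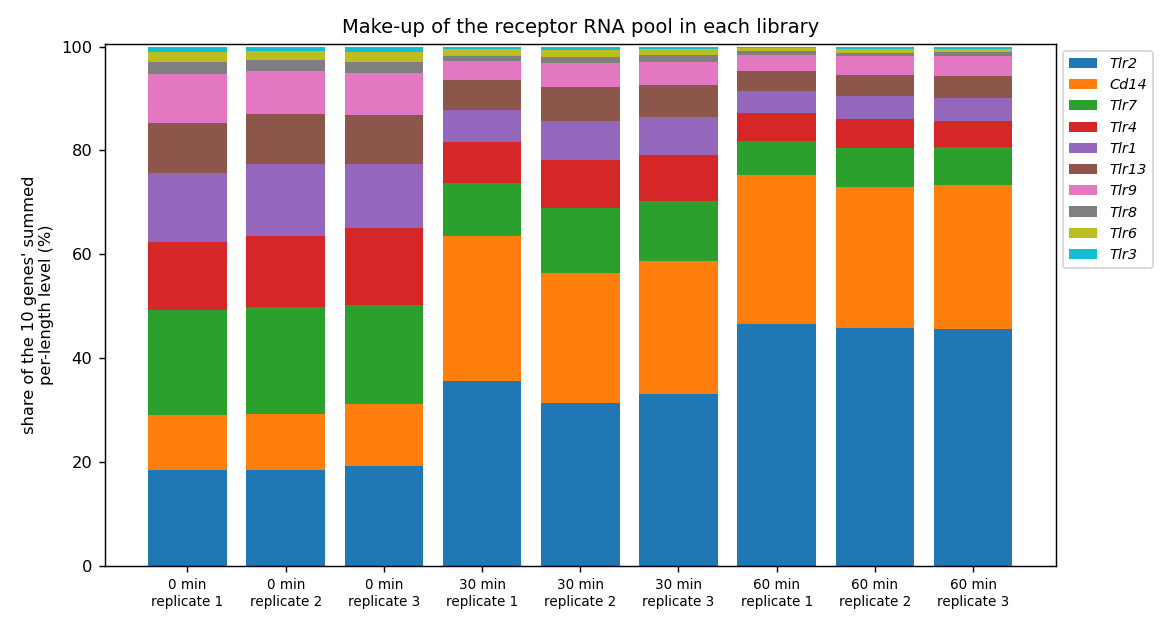
Share of the summed TPM of the 10 genes taken by each gene in each of the 9 libraries, as stacked bars in percent. Tlr2 and Cd14 together take 29.0% to 31.1% in the 0 min libraries, 56.4% to 63.5% at 30 min and 73.1% to 75.4% at 60 min.

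Genes with the courses closest to those of Cd14 and Tlr2 were looked up among 9949 genes with a mean of at least 5 CPM, by the root mean square distance of log2 CPM, centred on the 0 min mean, over the 9 libraries. These libraries share the time course, so the likeness is a description. Closest to Cd14 were the phosphatase gene Dusp2 (distance 0.108 log2 units, Pearson r 0.997), the AP-1 gene Junb (0.146), Trib1 (0.156), the cell cycle inhibitor Cdkn1a (0.175) and the cytokine gene Tnfsf9 (0.177). Closest to Tlr2 were the endolysosomal transporter gene Slc15a3 (0.0990, r 0.998), the interleukin-1 receptor antagonist Il1rn (0.125), the chemokine gene Ccl4 (0.133), Skil (0.141) and Irf1 (0.148). Cd14 and Tlr2 lay 0.239 log2 units from each other (r 0.986). The genes above were picked as the closest of 9949, so their smaller distances do not set Cd14 and Tlr2 apart.

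Tested genes next to the 2 rising genes, within 100 kb, were also read. E230025N22Rik, 29142 bases from Cd14, rose from 0.414 to 1.01 CPM at 60 min (log2 change 1.27, edgeR adjusted p = 0.00296). Tmco6, 8241 bases on the other side of Cd14, was not called (0.26, adjusted p = 0.0862), nor was Tmem131l, 55888 bases from Tlr2 (-0.01, adjusted p = 0.932). Beside the falling genes, Klf3, 91778 bases from Tlr1, was lower at 60 min (-0.35, adjusted p = 0.00115), and the genes flanking the Tlr7 and Tlr8 pair, Prps2 and Tmsb4x, were not called (adjusted p = 0.848 and 0.216). Pgk1, 26607 bases from Tlr13, was called higher at both times (0.18 and 0.15), calls lost with total-count scaling (adjusted p = 0.0647 and 0.201) and at 60 min without 0 min replicate 1 or 2 or 60 min replicate 1 or 2 (0.0594 to 0.118). At 30 min its call was lost without 0 min replicate 1 or 2 or any 30 min library (0.0540 to 0.0776). The other neighbours, Atp7a, Twf2, Alas1, Fam149a and Fam114a1, were not called in any comparison.

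The genes that work with these receptors were read as 5 lists with 62 tested genes. Together 6 were called higher and 2 lower at 30 min, beside 4.84% and 3.35% of all 14246 genes tested. At 60 min 16 were higher and 10 lower, beside 13.3% and 11.7% of all genes. No share over all genes was taken at an unadjusted edgeR p. Names beyond Ly96, Unc93b1, Myd88, Ticam1, Cd180 and genes changed by at least 0.5 on the log2 scale were chosen after their values were seen. Of the 10 partners in LPS recognition and at the cell surface, 1 was higher at 30 min, and 2 were higher and 1 lower at 60 min, with a median log2 change of 0.03 at 60 min. Ly96, the LPS-binding partner of Tlr4, did not pass at either time, with means of 3.73, 3.41 and 3.19 CPM (edgeR adjusted p = 0.697 and 0.332). Plaur, the urokinase receptor, rose at both times, from 31.9 through 39.7 to 61.8 CPM (log2 change 0.32 and 0.95). Tmed7, a carrier protein of the early secretory route, was the other gene higher at 60 min (0.14, adjusted p = 0.0270), a call lost without 0 min replicate 1 or 60 min replicate 1 or 2 (0.123, 0.0657 and 0.146) and with total-count scaling (0.247). Cd180, a receptor-like protein that restrains Tlr4 signalling, fell by 0.41 on the log2 scale at 60 min, from 195.1 to 147.2 CPM (adjusted p = 0.000416).

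Among 12 chaperones and traffic genes, 1 was higher and 1 lower at 30 min (4.84% and 3.35% of all genes). At 60 min 1 was higher and 2 lower (13.3% and 11.7% of all genes), with a median log2 change of -0.02. Unc93b1, which carries the endosomal receptors out of the endoplasmic reticulum, held means of 87.6, 89.0 and 86.6 CPM (edgeR adjusted p = 0.823 and 0.822). The higher gene at both times was Rab7b, a traffic GTPase (log2 change 0.28 and 0.14), its 60 min call being lost without 0 min replicate 2 (adjusted p = 0.0751) or 60 min replicate 2 (0.107) or with total-count scaling (0.204). Slc15a4, an endolysosomal transporter, was lower at both times (-0.16 and -0.27), its 30 min call being lost without 0 min replicate 1 or 3 or any 30 min library (0.0578 to 0.109) and by DESeq2 (0.120). The chaperone gene Pdia4 was lower at 60 min (-0.14), a call lost without 0 min replicate 2 or 60 min replicate 1 or 2 (0.0876 to 0.0964).

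Of 11 genes for ligand processing in endolysosomes, 1 was higher and 1 lower at 30 min (4.84% and 3.35% of all genes). At 60 min 1 was higher and 2 lower (13.3% and 11.7% of all genes), with a median log2 change of 0.02. Dnase2a, the lysosomal DNase, was lower at both times (log2 change -0.22 and -0.31, edgeR adjusted p = 0.00129 and 1.92e-05). Ctsb, a lysosomal protease gene, was higher at 60 min (0.14, adjusted p = 0.00794), a call lost with total-count scaling (0.074, adjusted p = 0.114). Slc29a3, a lysosomal nucleoside transporter, was lower (-0.20), a call lost without 0 min replicate 1 or 60 min replicate 1 or 2 (0.0529 to 0.0779). Rnaset2a was called higher at 30 min (0.34), a call lost without 0 or 30 min replicate 1 or 2 (0.0629 to 0.117), and its reads may be shared with its near-identical copy Rnaset2b.

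None of the 17 adaptor and proximal kinase genes was called at 30 min by edgeR, DESeq2 or limma-voom. By edgeR, 4.84% of all genes were called higher and 3.35% lower. At an unadjusted edgeR p under 0.05, 4 of the 17 were higher and 3 lower, with no share over all genes taken at that threshold. At 60 min 7 were higher and 4 lower, beside 13.3% and 11.7% of all genes, with a median log2 change of 0.08. The kinase gene Irak2 rose from 11.6 to 32.3 CPM (log2 change 1.47, edgeR adjusted p = 5.31e-10) and Ikbke, an IKK-related kinase, from 56.1 to 120.4 CPM (1.10, adjusted p = 1.90e-07). The adaptor Myd88 rose by 0.18 (adjusted p = 0.00367) and Ticam1 by 0.46 (adjusted p = 0.000175) on that scale. Pik3ap1, an adaptor for phosphoinositide 3-kinase, the ubiquitin ligase gene Traf6 and the kinase gene Tbk1 rose by 0.40, 0.29 and 0.32 (adjusted p = 5.96e-06, 4.78e-05 and 0.00032), and these calls held under all 17 alternatives. Among the lower genes, Tirap, which recruits Myd88, fell by 0.31 on the log2 scale (adjusted p = 0.000833). Ticam2, which recruits Ticam1, fell by 0.31 (adjusted p = 0.00095). No test set Tirap and Ticam2 against Myd88 and Ticam1. Sarm1, a TIR-domain adaptor gene near the filter at 0.964 and 0.467 CPM, fell by 1.03 (adjusted p = 0.0149), a call lost without 0 min replicate 1 (0.0642) or 60 min replicate 1 (0.0720) and by DESeq2 (0.0809). Tab1, a regulator of the kinase Tak1, fell by 0.21, a call lost without 0 min replicate 1 or 3 or 60 min replicate 2 or 3 (0.0604 to 0.112).

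Of 12 brakes on receptor signalling, 3 were higher at 30 min and none lower, beside 4.84% and 3.35% of all genes by edgeR. The counts were the same by DESeq2 and limma-voom and at an unadjusted edgeR p under 0.05. At 60 min 5 were higher and 1 lower, beside 13.3% and 11.7% of all genes, with a median log2 change of -0.03. Tnfaip3 (A20), a ubiquitin-editing inhibitor of NF-kB, rose from 6.07 through 148 to 271 CPM (log2 change 4.61 and 5.48, edgeR adjusted p = 6.48e-10 and 3.97e-11). Lilrb4a, an inhibitory surface receptor, rose from 169.9 through 368.6 to 594.8 CPM (1.12 and 1.81, adjusted p = 9.62e-08 and 2.35e-10). The deubiquitinase gene Cyld was higher at both times (0.19 and 0.28), its 30 min call being lost without 0 min replicate 1 or 2 or 30 min replicate 1 or 3 (0.0512 to 0.107). Irak3 and Tollip, which hold back the Irak kinases, were higher at 60 min by 0.20 and 0.14, calls lost without any 0 min library for Irak3 (0.0506 to 0.0776), without 60 min replicate 1 or 3 for Irak3 (0.0640 and 0.127), and without 0 min replicate 1 or 3 or 60 min replicate 2 or 3 for Tollip (0.0502 to 0.0992). With total-count scaling neither was called (0.121 and 0.239), nor was Tollip by DESeq2 (0.0518). The inhibitory receptor Cd200r1 fell by 0.41 at 60 min, a call lost without 0 min replicate 1 (0.0582) or 60 min replicate 1 (0.0541).

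The authors' deposited tables of their own comparisons with 0 min call the same numbers of members, 2 higher and 1 lower at 30 min and 2 higher and 3 lower at 60 min. The log2 changes of the members in the authors' deposited table and in the edgeR fit differed by at most 0.0054. For Tlr9 at 30 min the authors' deposited table gives -0.29 with an adjusted p of 0.00749.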

How the data were processed

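Total RNA of IMM macrophages was sequenced in 9 libraries, 3 per time. The submitters' processing notes name build mm10 and, among other software, STAR 2.7.0f, RSEM 1.3.1 and DESeq2. Annotation and strand mode are not stated in the sources read here. The deposited values are expected counts, which the authors made with RSEM and did not normalize. In each library 5.04% to 5.32% of them were not whole, and all were rounded for testing. RSEM shares reads that fit several genes, so near-identical genes are less certain. The authors' deposited tables of comparisons hold log2 fold changes and p-values per symbol from DESeq2, per the file headers, and their sign shows 0 min to be the baseline.

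Groups came from the sample labels. All 55450 identifiers were found in GENCODE M21 (GRCm38, 1-based positions), and 31142 had 0 counts throughout. Library totals were 26867428 to 30402308 counts, and over the TMM-scaled totals a floor of 3 counts is worth 0.0974 to 0.110 CPM. After filterByExpr, 14246 genes entered a quasi-likelihood fit of edgeR 4.0.16 (R 4.3.3) with TMM factors, all 9 libraries and time as the only term. Calls were Benjamini-Hochberg adjusted p under 0.05 over all genes, two-sided, and every adjusted p in the text is from this edgeR fit unless another tool is named. The SE was worked back from the log2 change and the F statistic, and intervals are 1.96 SE. They are narrower than intervals matched to the quasi-likelihood test. Ratios used exact permutation tests. On data simulated for 30 against 0 min (14077 genes), 84 of 98 genes changed by 1 log2 unit and 64 of 99 changed by 0.5 were recovered, with 3 false calls.

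The replicate numbers pair no samples on the labels, and deviations of same-numbered libraries correlated at -0.0637 to 0.0061 (9 pairs), those of other pairs at -0.0703 to 0.1006. Alternatives were total-count scaling, DESeq2 size factors, DESeq2 1.42.0, limma-voom (limma 3.58.1), no filter, a minimum count of 50, only the 2 groups compared, each library left out and a replicate block.

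The members and gene lists were chosen with earlier results of these data known. The rule for named genes took all members, Tlr5, Tlr11 and Tlr12, list genes called with an absolute log2 change of at least 0.5, Ly96, Unc93b1, Myd88, Ticam1 and Cd180, the 5 genes closest in course to each member changed at least 2-fold, and the nearest tested genes within 100 kb. Further list genes, with smaller changes, and the cell type markers were named after their values were seen, so that small counts are shown in full. Promoter windows came from RefSeq (GRCm38.p6).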

Additional observations from a re-analysis of the deposited data

Results flagged for a closer look

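For 5 genes the effect of the later time differed from that of the earlier one by the test of the difference itself, 60 min against 30 min in the edgeR fit (n = 3 libraries per time). Of all genes tested, 8.87% were called higher and 7.65% lower in this comparison. Groups of libraries that did not overlap were found for 17.1% of all genes (higher) and 16.7% (lower). The log2 difference was 0.61 for Cd14 and 0.99 for Tlr2, both higher in all 3 libraries at 60 min than in any at 30 min (edgeR adjusted p = 0.000102 and 5.93e-07). It was -0.15 for Tlr1 and -0.17 for Tlr7, lower in all 3 libraries (adjusted p = 0.0347 and 0.0172), and 0.26 for Tlr9, higher in all 3 (adjusted p = 0.0240). The Tlr9 difference is the one of these that runs against the change in the first 30 min, which was -0.28. The calls for Cd14 and Tlr2 held under all 17 alternatives, with adjusted p of at most 0.000995 for Cd14 and 1.05e-05 for Tlr2. Those for Tlr1, Tlr7 and Tlr9 were each lost on leaving out 1 of several libraries. For Tlr1 these were 30 min replicate 2 or 3 or 60 min replicate 1 or 2 (adjusted p = 0.132, 0.0965, 0.105 and 0.120). The Tlr1 call was also lost by DESeq2 (adjusted p = 0.0914). For Tlr7 the libraries were 30 min replicate 2 or 60 min replicate 1 (0.0931 and 0.0930). For Tlr9 they were any 30 min library or 60 min replicate 3 (0.0557 to 0.105).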

How the results depend on the processing

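Each of the 30 log2 changes of members was refitted under 17 alternatives, and 19 of them kept their direction and their side of the threshold in all. These include Cd14 and Tlr2 in every comparison and Tlr1, Tlr7 and Tlr8 at 60 min against 0 min. The number of lower members at 30 min, 1 in the reported fit, was 2 with total-count scaling, without a filter and with a minimum count of 50, where Tlr1 joined Tlr9, and it was 0 to 2 with 1 library left out. The number lower from 30 to 60 min, 2 in the reported fit, was 4 with total-count scaling, without a filter and with only the 2 groups compared, where Tlr4 and Tlr6 were added, 1 with DESeq2, and 0 to 3 with 1 library left out. With the replicate number as a block, which nothing on the labels calls a pairing, these counts were 0 and 1: Tlr9 at 30 min (adjusted p = 0.0569) and Tlr1 from 30 to 60 min (0.0618) were no longer called, and no other call of a member changed. Of the list genes and markers named, Slc15a4 and Cyld at 30 min and Xcr1 at 60 min lost their calls against 0 min under the block (0.0596, 0.0506 and 0.0524). Changes near 0 turned sign: Tlr13 at 60 min was -0.041 with total-count scaling, Tlr9 at 60 min ran from -0.106 to 0.056 and Tlr3 from 30 to 60 min from -0.125 to 0.047 with 1 library left out. The cause was not tested. Of the 10 places in the order of levels per length at 0 min, 8 were kept with the longest transcript, 5 with coding length and 8 to 10 with 1 library left out. The share of Tlr2 and Cd14 at 60 min was 72.1% with the longest transcript and 72.2% with coding length. The alternatives for this share and for the lists, and leaving out libraries for the order, were chosen after seeing the data. Depth limits Tlr3, Tlr6 and Tlr8, which had 135 to 291 counts in a library, and Tlr5, Tlr11 and Tlr12, which could not be tested.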
